A study of Homo sapiens with 66 samples.

Results

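MED23 was removed from A375 cells in 2 separate experiments of this series, and the mRNA of 12 of its 66 libraries is compared here, each knockout with the control cells of its own experiment. A375 is an established human melanoma cell line with a mutant BRAF kinase, which keeps the ERK pathway switched on. In the first experiment (the SOX10 experiment), 3 libraries came from cells with MED23 guide 1 and an empty vector (MED23sg1_EV, genotype MED23 KO), and 3 from cells with a guide against GFP and the same empty vector (GFPsg_EV, genotype WT). In the second (the HDAC3 experiment), 3 libraries came from cells labelled MED23KO (genotype MED23 KO) and 3 from cells labelled Ctrl (genotype WT), with no vector named. All these cells were grown in DMEM with 10% FBS, and the labels do not say of each library whether it was untreated or received DMSO. The labels also do not say whether a knockout was a clone or a pool, or which guide the HDAC3 experiment used. They place the experiments in batch 2 and batch 3. Experiment, batch, vector and guide therefore cannot be told apart.

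The 12 libraries were chosen by their labels alone, not by any measured value. Total counts lay between 25.78 and 27.84 M in the 6 libraries of the SOX10 experiment, and between 67.98 and 106.19 M in the 6 of the HDAC3 experiment. Mitochondrial mRNAs took on average 1.65% to 1.80% of the counts in each of the 4 groups. Of the melanoma markers, SOX10, MITF and S100B were well above the detection limit, whereas MLANA and PMEL lay near 1 CPM (counts per M of the scaled library size) and TYR was at or near 0 in the libraries of all 4 groups. Whether the replicates are separate cultures is not stated, so the p-values measure the spread between these libraries alone, which may be technical. Within the HDAC3 experiment, control replicate 1 differed from the other control libraries by 13.8 and 15.9 times the Poisson variance, and the other two differed by 4.13 times. Knockout replicates 1 and 3 of that experiment differed by 12.4 times, and its other knockout pairs by 5.95 and 6.04 times, beside 1.67 to 2.34 times within the groups of the SOX10 experiment. This ratio grows with the counts, which were larger in the HDAC3 experiment, so it does not compare the spread of the 2 experiments. In bulk RNA, fewer cells of a type and less RNA per cell cannot be told apart.

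Mediator is the complex that passes signals from DNA-bound transcription factors to RNA polymerase II, and MED23 is a subunit of its tail, the part that many such factors contact. The best known partner of MED23 is ELK1, an ETS factor that ERK phosphorylates and that binds with SRF, the serum response factor, at serum response elements next to immediate early genes such as EGR1. In melanoma, SOX10 maintains a neural crest and melanocyte program, and cells that lose it commonly gain SOX9, receptor kinases such as EGFR, and matrix genes.

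SRF recognises a short motif named the CArG box (CC, 6 bases of A or T, GG). The promoters of EGR1, which fell in both experiments, and of SRF, which did not pass the test in either, are shown because both hold a pair of CArG boxes close to the start of transcription. The sequences are RefSeq's on GRCh38.p14, the 250 bases before the start, both on the plus strand, at chr5:138465229-138465478 for EGR1 and chr6:43171019-43171268 for SRF. Capitals mark the CArG boxes.
EGR1: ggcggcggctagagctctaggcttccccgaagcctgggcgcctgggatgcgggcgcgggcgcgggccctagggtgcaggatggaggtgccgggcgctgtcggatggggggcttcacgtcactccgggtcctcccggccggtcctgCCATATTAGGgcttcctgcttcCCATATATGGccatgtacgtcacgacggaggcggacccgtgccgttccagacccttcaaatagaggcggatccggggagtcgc
SRF: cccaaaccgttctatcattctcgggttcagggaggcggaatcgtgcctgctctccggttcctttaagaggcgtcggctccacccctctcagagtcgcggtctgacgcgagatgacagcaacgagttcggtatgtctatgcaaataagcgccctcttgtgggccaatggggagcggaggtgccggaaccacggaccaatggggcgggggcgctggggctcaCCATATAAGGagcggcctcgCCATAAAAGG
The boxes begin 105 and 83 bases before the start in EGR1, and 30 and 10 bases before it in SRF. A CArG box was found in any promoter window of this length for 394 of 27305 genes (1.44%). It was found for 5 of 203 genes lower in both experiments (2.46%) and for 5 of 252 higher in both (1.98%). In the immediate early list it was found for 3 of 14 genes (21.4%). Some genes have several windows and so more chances of a match. The motif reads the same on both strands, so each box was counted once. A match describes letters in the window and is no evidence of binding.

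MED23 mRNA itself (ENSG00000112282, chr6:131573966-131628229, minus strand, GRCh38) fell to 51.8% of the control level in the SOX10 experiment and to 47.6% in the HDAC3 experiment. In the SOX10 experiment its level was 31.9, 29.4 and 31.7 CPM in the control libraries and 16.6, 16.0 and 15.7 CPM in the knockout libraries. The HDAC3 experiment had 31.9, 33.4 and 33.4 CPM in the control libraries and 16.0, 15.3 and 15.6 CPM in the knockout libraries. Every knockout library lay below every control library of its experiment, and the levels were close in the 2 experiments. The log2 fold change was -0.95 ± 0.06 in the first (edgeR quasi-likelihood test, adjusted p = 8.7e-15) and -1.07 ± 0.06 in the second (adjusted p = 2.8e-12), and the difference between them was 0.10 ± 0.08 (adjusted p = 0.642). These values count reads over the whole gene, and mRNA with a small deletion at the guide site is still counted. HDAC3 mRNA, the target of other groups of the second experiment, had a log2 fold change of -0.03 ± 0.04 and 0.04 ± 0.05 after MED23 loss and did not pass the test (adjusted p = 0.613 and 0.645).

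**Figure D1:**
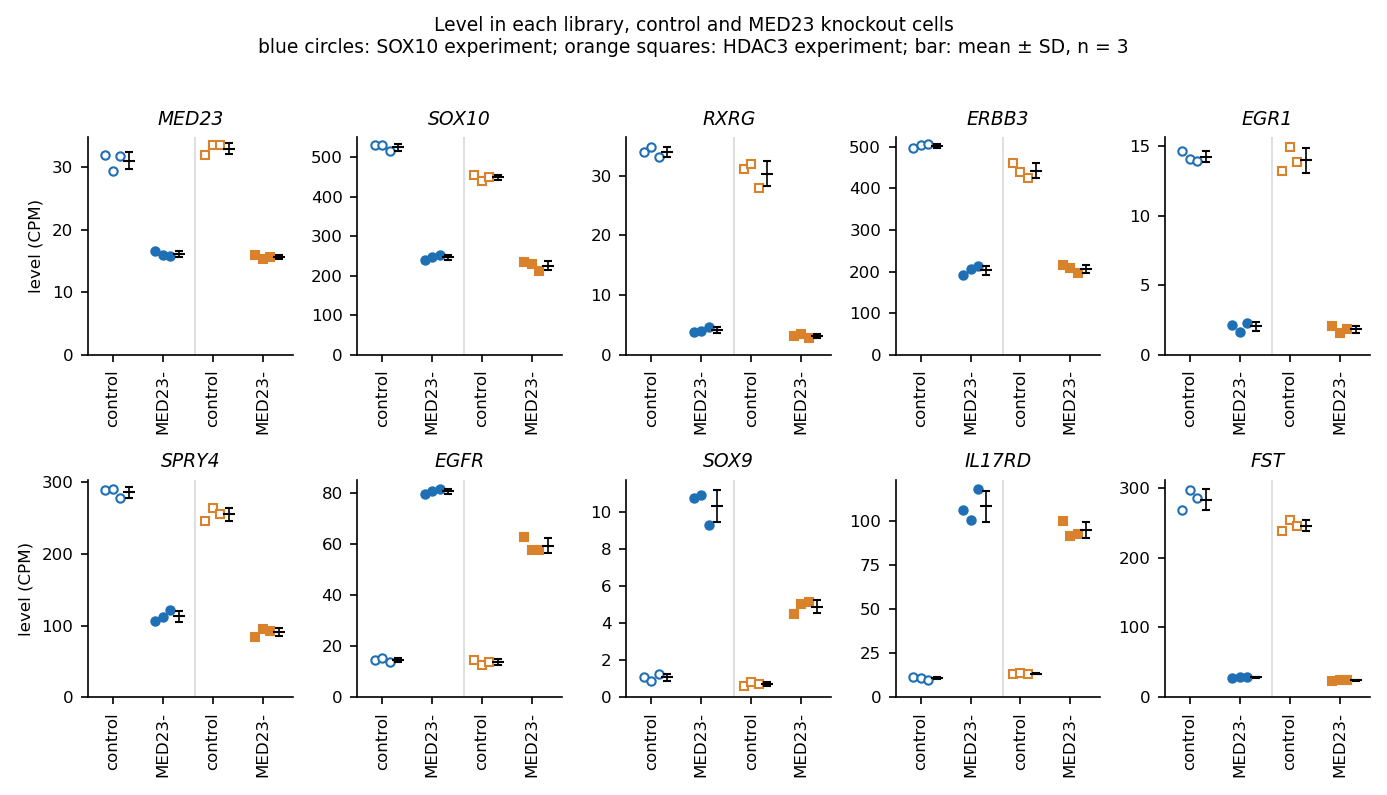
Level in CPM (linear axis from 0) of 10 genes in each of the 12 libraries, by experiment and group, with 1 point per library and bars at the mean ± SD (n = 3). In both experiments the knockout libraries lie below the control libraries for MED23, SOX10, RXRG, ERBB3, EGR1, SPRY4 and FST, and above them for EGFR, SOX9 and IL17RD.

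The first question was how much of the response to MED23 loss recurred. A gene is counted as called where its adjusted p is under 0.05 and its change at least 2-fold. In the SOX10 experiment 537 of 18009 tested genes were called higher (2.98%) and 455 lower (2.53%). In the HDAC3 experiment 481 of 21139 were called higher (2.28%) and 526 lower (2.49%). Of the 17954 genes tested in both, 669 were called in both (3.73%), 351 higher and 318 lower, and none was called with opposite signs. The 669 genes were 68.3% of the calls of the SOX10 experiment and 78.2% of those of the HDAC3 experiment, counted over genes tested in both. The 2 experiments share no library.

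The sizes were also compared. The median absolute log2 fold change of the 669 genes was 1.54 in the SOX10 experiment and 1.50 in the HDAC3 experiment, and the change was larger in the SOX10 experiment for 354 of them. The difference between experiments had a median absolute size of 0.21 on the log2 scale. Pearson's r of the fold changes was 0.96 over these genes, which were chosen for being large in both, and 0.82 over all 17954 genes (Spearman's rho 0.70). These correlations are across genes, which share libraries and are not independent. A total of 117 genes changed at least 4-fold in both experiments, 62 higher and 55 lower. Protein-coding genes made up 81.2% of the 669 and 76.2% of all genes tested in both, and lincRNAs 9.12% and 5.80%.

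**Figure D2:**
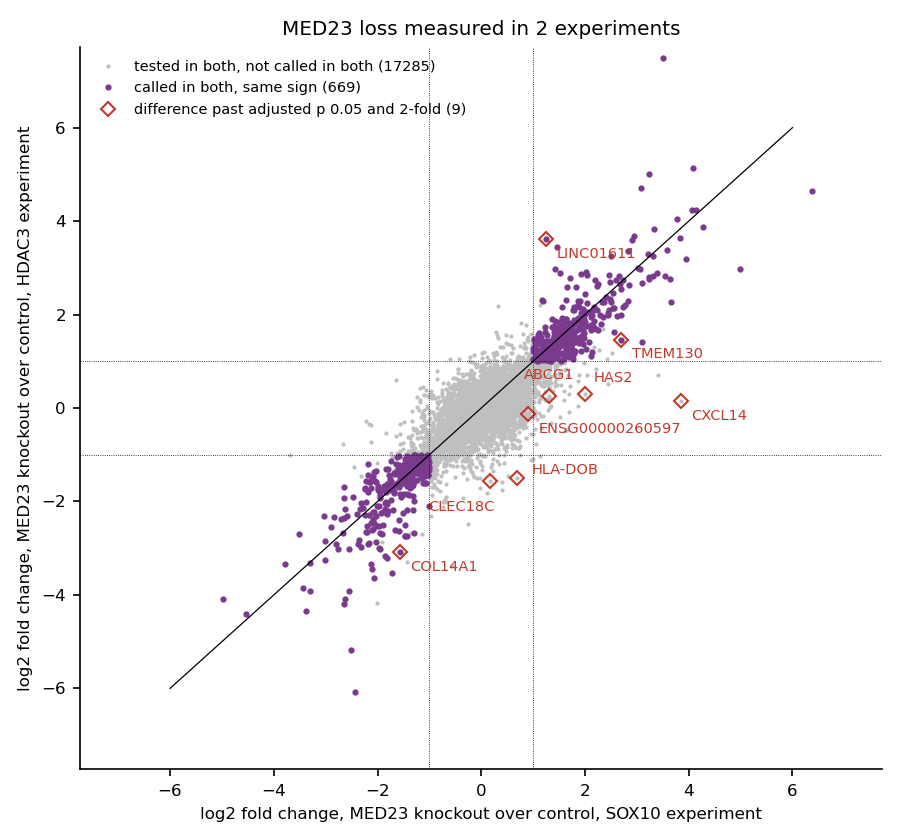
Log2 fold change after MED23 loss in the HDAC3 experiment against that in the SOX10 experiment, 1 point per gene tested in both. The 669 genes called in both (purple) all lie in the quadrants of equal sign, and the 9 genes whose change differed at least 2-fold between the experiments (red diamonds) lie off the diagonal.

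The genes lower in both experiments with the largest changes at a mean level of at least 4 CPM (log2 CPM of 2) were DCT, a melanin enzyme, FDCSP, a small secreted protein, RXRG, FST, CEMIP, EGR1, LAD1 and MMP8. FST encodes follistatin, which binds activins. Its level was 267, 296 and 285 CPM in the controls and 27.4, 29.0 and 29.6 CPM in the knockouts of the SOX10 experiment, and 238, 254 and 245 CPM and 23.6, 24.7 and 25.2 CPM in those of the HDAC3 experiment. Control and knockout libraries were far apart and the replicates close together, and the log2 fold changes of -3.30 ± 0.04 and -3.33 ± 0.05 differed by 0.01 ± 0.06 (95% interval -0.11 to 0.13, adjusted p = 0.99). CEMIP, which takes part in the breakdown of hyaluronan, was at 265, 273 and 257 CPM in the controls and 30.1, 32.0 and 36.5 CPM in the knockouts of the SOX10 experiment, and at 218, 212 and 201 CPM and 29.4, 30.2 and 28.2 CPM in the HDAC3 experiment. It fell by about the same amount in both (-3.01 ± 0.05 and -2.84 ± 0.05). MMP8, a collagenase, fell as well (-2.90 ± 0.10 and -2.55 ± 0.08), as did FDCSP (-3.44 ± 0.12 and -3.85 ± 0.09) and LAD1, a basement membrane protein (-2.76 ± 0.13 and -3.01 ± 0.14). DCT was low to begin with: it had 1.79, 2.13 and 2.35 CPM in the controls of the SOX10 experiment and 1.09, 1.54 and 1.01 CPM in those of the HDAC3 experiment, and 16 and 15 counts over the 3 knockout libraries. It reached the level limit because the fit also held groups that are not compared here.

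The genes higher in both experiments with the largest changes at that level were IL17RD, ALPK2, DOCK2, IGFBP7, EGFR, LPAR1, NPTX2 and COL5A1. IL17RD, also known as SEF, an inhibitor of FGF and ERK signalling, stood at 11.3, 11.2 and 10.1 CPM in the controls and 106, 101 and 118 CPM in the knockouts of the SOX10 experiment. For the HDAC3 experiment the levels were 13.2, 13.8 and 13.3 CPM and 100.1, 91.8 and 92.7 CPM. It had the highest mean change of these genes, with log2 fold changes of 3.32 ± 0.06 and 2.82 ± 0.07, and the rise was larger in the SOX10 experiment by 0.48 ± 0.08 (adjusted p = 0.00312). LPAR1, a receptor of lysophosphatidic acid, rose by 2.55 ± 0.09 and 2.14 ± 0.14, and DOCK2, an exchange factor for the GTPase RAC, by 2.50 ± 0.08 and 2.28 ± 0.12. NPTX2, a secreted pentraxin, rose by 2.61 ± 0.06 and 1.96 ± 0.10. IGFBP7, a secreted binding protein, rose by 2.56 ± 0.07 and 2.14 ± 0.08, with the limit that 14.0% of its exonic bases overlap POLR2B on the opposite strand and the strand setting of the counting is not known. ALPK2, a kinase, rose by 2.77 ± 0.11 and 2.21 ± 0.12.

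**Figure D3:**
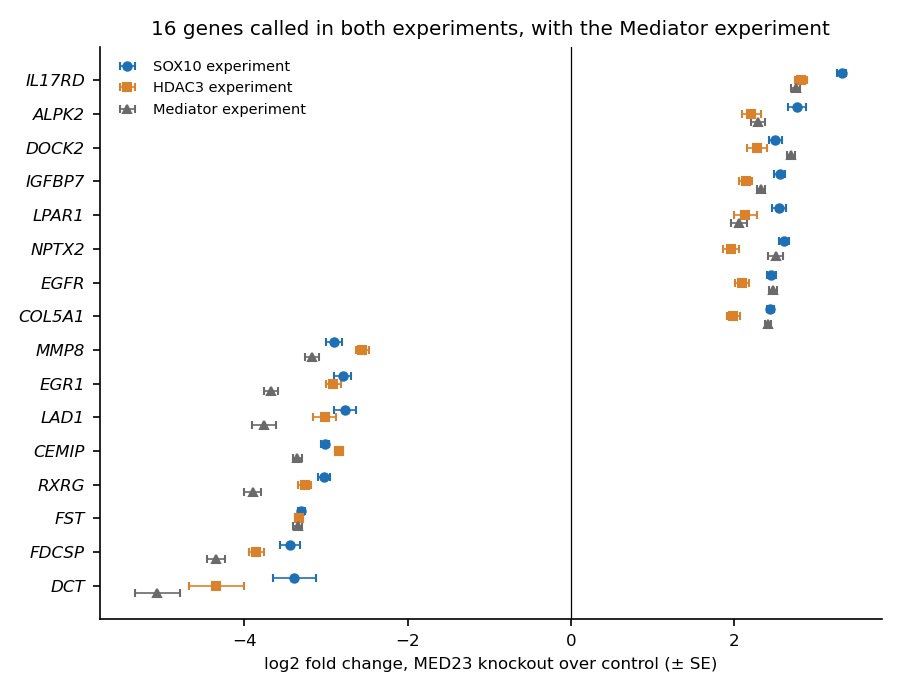
Log2 fold change ± SE of the 8 highest and 8 lowest genes called in both experiments, in the SOX10, HDAC3 and Mediator experiments. Each gene lies on the same side of 0 in all 3 experiments. The 8 highest genes, among them IL17RD, NPTX2 and COL5A1, all lie further from 0 in the SOX10 than in the HDAC3 experiment.

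From here on a gene is said to have risen or fallen where its adjusted p is under 0.05, with no minimum size. At that limit 21.2% of tested genes were higher and 22.3% lower in the SOX10 experiment, and 12.3% were higher and 12% lower in the HDAC3 experiment, so a list's counts have to be read against these shares. The lists were chosen with earlier results of these data known, so a count above these shares is not independent evidence. The median log2 fold change over all genes tested in both was 0.00 in either experiment, rounded to 2 decimals. Genes past this limit in both numbered 4305, of which 2193 were higher in both, 2099 lower in both, and 13 had opposite signs. Of all genes tested in both, 12.2% were thus higher in both and 11.7% lower in both.

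Most other Mediator subunits did not pass. Of 19 subunits of the head and middle, 2 fell in both experiments, MED30 (-0.38 and -0.25) and MED8 (-0.26 and -0.23), a share near that of all genes. Of 7 genes of the kinase module, MED13L (0.36 and 0.38) and CDK19 (0.36 and 0.21) rose in both. In the HDAC3 experiment MED30 and CDK19 each lost the call when any 1 of 4 libraries was left out (all but Ctrl replicate 1 and MED23KO replicate 3), with adjusted p-values up to 0.155 and 0.116.

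The neural crest and SOX10-associated genes fell almost throughout. Of 19 members, 15 fell and 2 rose in the SOX10 experiment (median log2 fold change -1.07), 16 fell and 2 rose in the HDAC3 experiment (median -1.19), and 15 fell in both. SOX10 (ENSG00000100146, chr22:37970686-37987422, minus strand) was at 529.5, 531 and 514 CPM in the controls and 239, 248 and 251 CPM in the knockouts of the SOX10 experiment. The HDAC3 experiment gave 454, 441 and 450.3 CPM and 236, 229 and 212 CPM. Knockout and control libraries did not overlap, with log2 fold changes of -1.09 ± 0.03 (adjusted p = 2.0e-22) and -0.99 ± 0.05 (adjusted p = 9.7e-13) and a difference of -0.12 ± 0.05 (95% interval -0.21 to -0.03, adjusted p = 0.293).

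RXRG, a retinoid X receptor that marks neural crest-like melanoma cells (ENSG00000143171, chr1:165400917-165445355, minus strand), fell most in this list. Its level was 34.0, 34.8 and 33.2 CPM in the controls and 3.85, 3.95 and 4.70 CPM in the knockouts of the SOX10 experiment, and 31.2, 32.0 and 27.9 CPM and 3.18, 3.47 and 2.86 CPM in the HDAC3 experiment. Knockout libraries kept 12.3% and 10.4% of the control level (-3.02 ± 0.08, adjusted p = 2.3e-23, and -3.26 ± 0.08, adjusted p = 4.9e-18). ERBB3, the neuregulin receptor, was at 497, 505 and 505 CPM in the controls and 191, 205 and 213 CPM in the knockouts of the SOX10 experiment, and at 461, 439 and 426 CPM and 216, 208 and 196 CPM in the HDAC3 experiment. Its log2 fold changes were -1.31 ± 0.03 and -1.10 ± 0.05, and it fell further in the SOX10 experiment by 0.23 ± 0.05 (adjusted p = 0.0324), a difference that did not pass when any 1 of 10 of the 12 libraries was left out, with adjusted p-values up to 0.28. FOXD3, a neural crest transcription factor (-1.83 and -1.75), CDH19, a cadherin of Schwann cell precursors (-1.82 and -1.66), NES, the intermediate filament nestin (-1.56 and -1.39), S100B (-1.41 and -1.29) and NGFR, the nerve growth factor receptor (-0.87 and -1.08), fell in both.

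A pair of members went the other way. TFAP2A, an AP-2 transcription factor of neural crest and epidermis, was at 8.36, 7.36 and 6.65 CPM in the controls and 23.7, 26.2 and 24.8 CPM in the knockouts of the SOX10 experiment, and at 7.36, 7.19 and 8.57 CPM and 25.3, 24.1 and 24.7 CPM in the HDAC3 experiment. It rose with no overlap between groups (1.74 ± 0.07 and 1.68 ± 0.08), while its relative TFAP2B fell (-1.02 and -1.26). SOX6 also rose (0.32 and 0.75), but its rise in the SOX10 experiment did not pass without GFPsg_EV replicate 2 (adjusted p = 0.0553), GFPsg_EV replicate 3 (0.0871) or MED23sg1_EV replicate 3 (0.172). PAX3, which acts upstream of MITF, did not pass the test in either experiment (0.13 ± 0.06 and 0.12 ± 0.06). GFRA2, a co-receptor for neurturin, had -0.25 ± 0.47 in the SOX10 experiment and fell in the HDAC3 experiment (-2.49 ± 0.59), but the difference itself did not pass (adjusted p = 0.142, and 0.0302 without MED23KO replicate 3). MITF, the melanocyte master regulator, rose slightly in the SOX10 experiment (0.18 ± 0.04, adjusted p = 0.00129), and its change of 0.10 ± 0.05 in the other did not pass (adjusted p = 0.221). Of 18 melanocytic lineage genes 11 could be tested in both, of which 5 fell and 3 rose in the SOX10 experiment, 4 fell and 1 rose in the HDAC3 experiment, and 1 rose in both. The 4 that fell in the HDAC3 experiment fell in both: DCT, BCL2A1 (-0.91 and -0.82), RAB38 (-0.78 and -0.61) and CDK2 (-0.53 and -0.35). The BCL2A1 call in the SOX10 experiment was lost without GFPsg_EV replicate 1 (adjusted p = 0.0761), GFPsg_EV replicate 3 (0.0743) or MED23sg1_EV replicate 1 (0.0794).

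The immediate early genes, which respond to growth factors within minutes, were split. Of 18 listed, 16 were tested, 9 fell and 1 rose in the SOX10 experiment (median -0.51), 7 fell and 1 rose in the HDAC3 experiment (median -0.38), and the 7 that fell in the second also fell in the first. EGR1, a zinc finger factor (ENSG00000120738, chr5:138465490-138469315, plus strand), was at 14.7, 14.1 and 14.0 CPM in the controls and 2.17, 1.66 and 2.30 CPM in the knockouts of the SOX10 experiment. The levels in the HDAC3 experiment were 13.2, 15.0 and 13.8 CPM and 2.10, 1.58 and 1.83 CPM. The knockout libraries of the experiments overlapped with each other and lay far below both sets of controls (-2.80 ± 0.11, adjusted p = 3.0e-19, and -2.91 ± 0.09, adjusted p = 4.3e-16). The difference of 0.09 ± 0.16 did not pass (95% interval -0.23 to 0.41, adjusted p = 0.897).

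EGR3, a relative of EGR1, was at 15.8, 15.0 and 14.1 CPM in the controls and 3.12, 3.10 and 3.04 CPM in the knockouts of the SOX10 experiment, and at 16.1, 19.8 and 19.9 CPM and 3.80, 3.74 and 5.11 CPM in the HDAC3 experiment (-2.28 ± 0.09 and -2.15 ± 0.11). The orphan nuclear receptor NR4A1 was at 48.5, 46.7 and 44.9 CPM in the controls and 9.03, 9.34 and 9.65 CPM in the knockouts of the SOX10 experiment, and at 36.0, 36.7 and 35.5 CPM and 8.90, 9.27 and 8.11 CPM in the HDAC3 experiment (-2.32 ± 0.05 and -2.04 ± 0.07). In neither gene did knockout and control libraries overlap. FOS fell too (-1.30 ± 0.17 and -0.92 ± 0.16) from a low level of 3.10, 4.30 and 3.60 CPM and 2.86, 3.63 and 2.99 CPM in the controls. NR4A1 and FOS hold no CArG box in the windows searched. These cover only the 250 bases before a start, and boxes further away were not looked for. SRF, with its pair of boxes, was at 50.3, 49.2 and 46.4 CPM in the controls and 47.8, 48.1 and 46.8 CPM in the knockouts of the SOX10 experiment, and at 40.5, 37.9 and 40.0 CPM and 40.1, 41.1 and 36.6 CPM in the HDAC3 experiment. Its groups overlapped in both (-0.03 ± 0.04 and -0.01 ± 0.06). IER2 (-0.12 and -0.05), KLF4 (0.07 and 0.03) and KLF6 (-0.02 and 0.05) did not pass in either, although IER2 passed in the SOX10 experiment without GFPsg_EV replicate 3 (adjusted p = 0.0449) or MED23sg1_EV replicate 3 (0.0498). ATF3, a stress-induced factor of the same list, rose (1.17 ± 0.13 and 1.26 ± 0.09).

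ERK pathway output genes, which ERK activity induces and of which many feed back on it, moved in both directions and mostly the same way in the 2 experiments. Of 18 members, 8 rose and 8 fell in the SOX10 experiment, 7 rose and 9 fell in the HDAC3 experiment, 6 rose in both and 8 fell in both. The feedback inhibitor SPRY4 was at 289, 291 and 278 CPM in the controls and 106, 112 and 121 CPM in the knockouts of the SOX10 experiment, and at 246, 264 and 256 CPM and 84.8, 96.0 and 92.6 CPM in the HDAC3 experiment. Knockout and control libraries were far apart in both (-1.33 ± 0.04 and -1.49 ± 0.05). SPRY2 fell less (-0.55 and -0.58), whereas SPRY1 rose (0.81 and 0.87), and so did the cytokine IL11 (1.18 and 1.34). CCND1, cyclin D1, fell slightly (-0.13 ± 0.03 and -0.21 ± 0.04). DUSP6, the ERK phosphatase, was at 153, 155 and 151 CPM in the controls and 165, 164 and 167 CPM in the knockouts of the SOX10 experiment, and at 137, 157 and 155 CPM and 131, 134 and 139 CPM in the HDAC3 experiment. The groups did not overlap in the first and overlapped in the second. It rose by 0.11 ± 0.03 in the SOX10 experiment (adjusted p = 0.00539), its value in the other was -0.15 ± 0.05 (adjusted p = 0.0325), and these differed (adjusted p = 0.0289). The call in the HDAC3 experiment was lost without Ctrl replicate 2 (adjusted p = 0.174), Ctrl replicate 3 (0.147), MED23KO replicate 1 (0.119) or MED23KO replicate 2 (0.0958), and the DUSP6 difference was lost when any 1 of 6 of the libraries was left out, with adjusted p-values up to 0.11.

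**Figure D4:**
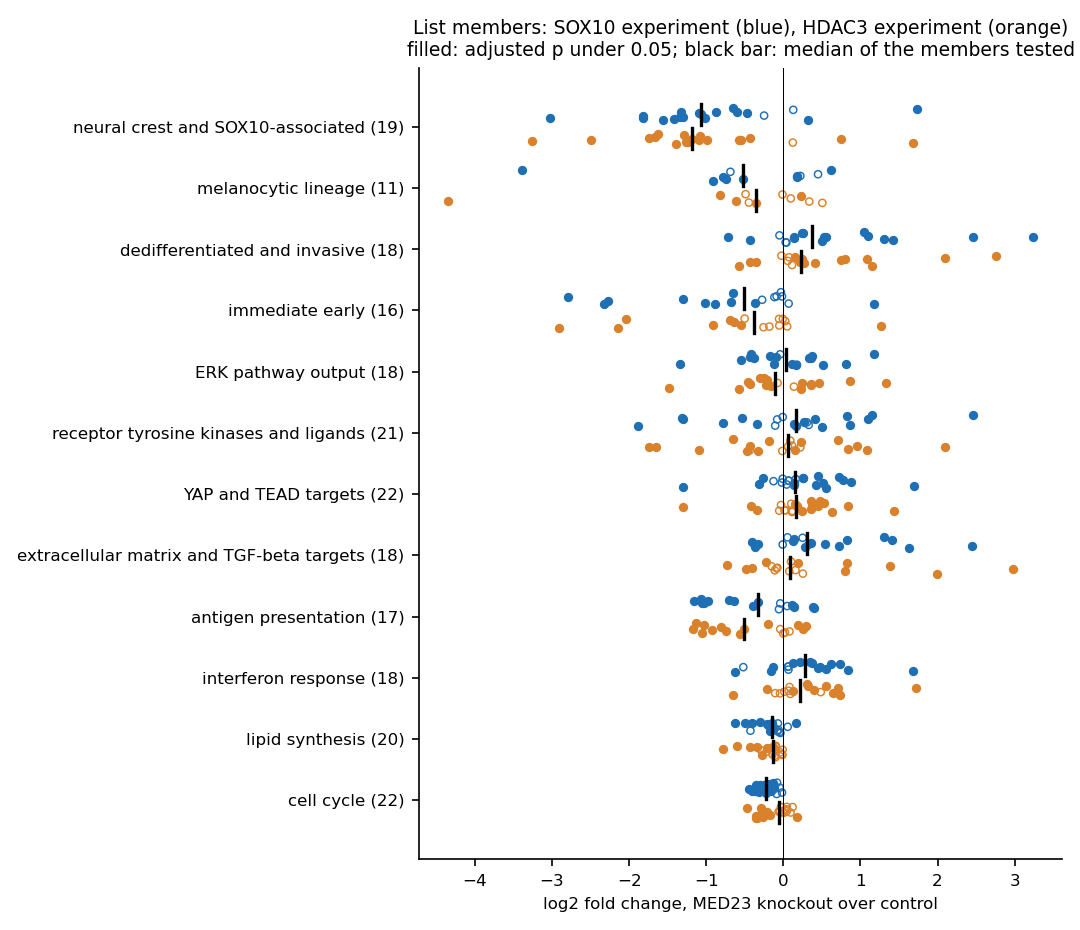
Log2 fold changes of the members of 12 gene lists in the SOX10 and HDAC3 experiments, 1 point per member, filled where the adjusted p is under 0.05, with a black bar at the list's median. The neural crest list has medians of -1.07 and -1.19, and the dedifferentiated list medians of 0.37 and 0.23.

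Most genes of the dedifferentiated and invasive list rose. Of 18 members 13 rose and 2 fell in the SOX10 experiment (median 0.37), 11 rose and 3 fell in the HDAC3 experiment (median 0.23), and 11 rose in both. In the HDAC3 experiment the number that rose was 9 to 10 when 1 library was left out. SOX9, the SOX family factor that often replaces SOX10, was at 1.12, 0.891 and 1.25 CPM in the controls and 10.7, 10.9 and 9.30 CPM in the knockouts of the SOX10 experiment. The HDAC3 experiment gave 0.633, 0.810 and 0.728 CPM and 4.51, 5.04 and 5.12 CPM. It rose in both from about 1 CPM or less (3.24 ± 0.15 and 2.75 ± 0.20), and the difference of 0.47 ± 0.21 did not pass (adjusted p = 0.373). WNT5A (1.42 and 1.14), a Wnt ligand of invasive melanoma cells, rose in both. AXL, a receptor kinase that often marks this state, rose little (0.14 ± 0.03 and 0.16 ± 0.04), and in the HDAC3 experiment its rise did not pass without Ctrl replicate 2 (adjusted p = 0.063), MED23KO replicate 1 (0.0518) or MED23KO replicate 2 (0.0513). The axon guidance ligand SLIT2 (-0.72 and -0.58) and the AP-1 factor FOSL1 (-0.44 and -0.43) fell in both.

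Receptor tyrosine kinases and their ligands moved in both directions. Of 25 listed, 21 were tested, 10 rose and 6 fell in the SOX10 experiment, 7 rose and 8 fell in the HDAC3 experiment, 7 rose in both and 6 fell in both. EGFR, the receptor of EGF (ENSG00000146648, chr7:55019021-55211628, plus strand), was at 14.7, 15.5 and 13.9 CPM in the controls and 79.8, 80.8 and 81.7 CPM in the knockouts of the SOX10 experiment. Levels in the HDAC3 experiment were 14.8, 12.8 and 13.9 CPM and 62.8, 57.8 and 57.5 CPM. It rose in both (2.46 ± 0.05, adjusted p = 1.0e-24, and 2.10 ± 0.09, adjusted p = 1.9e-14), and further in the SOX10 experiment by 0.34 ± 0.08 (adjusted p = 0.0328). That difference lost its call without GFPsg_EV replicate 3 (0.30, adjusted p = 0.181), GFPsg_EV replicate 1 (0.34, adjusted p = 0.0961) or MED23sg1_EV replicate 3 (0.36, adjusted p = 0.0585). MET (0.83 and 0.84), FGFR1 (0.86 and 0.70) and PDGFRA (1.15 and 0.95) rose in both. Among the ligands, the ERBB3 ligand NRG1 rose (1.10 and 1.09), and the EGFR ligand AREG (-1.89 and -1.74), the MET ligand HGF (-1.31 and -1.65) and TGFA (-0.53 and -0.43) fell. The HGF calls were lost without MED23sg1_EV replicate 3 (adjusted p = 0.0547) and without MED23KO replicate 1 (0.0532). TYRO3, a relative of AXL, also fell (-0.78 and -0.65).

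Of 18 matrix and TGF-beta genes tested, 11 rose and 3 fell in the SOX10 experiment (median 0.30), and 6 rose and 4 fell in the HDAC3 experiment (median 0.09). Whether the counts differ was not tested, but 3 members differed singly, beside 0.977% of all genes tested for a difference. COL5A1, a fibril-forming collagen, was at 32.2, 29.6 and 28.7 CPM in the controls and 167, 164 and 161 CPM in the knockouts of the SOX10 experiment, and at 27.6, 24.6 and 26.3 CPM and 113, 100.2 and 98.9 CPM in the HDAC3 experiment. It rose in both with no overlap (2.44 ± 0.04 and 1.99 ± 0.08), and further in the first by 0.43 ± 0.07 (adjusted p = 0.00211). TGFBI (0.72 and 0.19, difference adjusted p = 1.1e-05) and SPARC (0.36 and 0.08, difference adjusted p = 7.5e-04), both secreted matrix proteins, were the others. COL1A1 (1.63 and 1.38) and SMAD7, an inhibitor that TGF-beta induces (0.83 and 0.83), rose in both. The basement membrane collagens COL4A1 (-0.37 and -0.49) and COL4A2 (-0.33 and -0.41) fell in both, as did COL6A3 (-0.41 and -0.73).

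The targets of YAP and TEAD, the effectors of the Hippo pathway, gave the same counts in both experiments: 12 of 22 rose and 3 fell in each, and all 15 were the same genes with the same sign. TGFB2, a TGF-beta ligand (1.70 and 1.44), F3, tissue factor (0.87 and 0.83), and CCN2 (0.78 and 0.53) were among those that rose. IGFBP3 (-1.30 and -1.31), ANKRD1 (-0.31 and -0.42) and RBMS3 (-0.26 and -0.34) fell.

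More antigen presentation genes fell than rose, and the members that fell furthest in both experiments were CIITA, CD74, HLA-DRA, HLA-DRB1 and HLA-DPA1, all of the MHC class II pathway. Of 17 members 9 fell and 4 rose in the SOX10 experiment (median -0.33), 10 fell and 3 rose in the HDAC3 experiment (median -0.50), and 9 fell in both. HLA-DRA, the alpha chain of HLA-DR, was at 424, 444 and 453 CPM in the controls and 204, 211 and 215 CPM in the knockouts of the SOX10 experiment. Levels in the HDAC3 experiment were 582, 645 and 651 CPM and 291, 304 and 308 CPM. Its level was about halved in both (-1.07 and -1.06), alongside CIITA, the activator of class II genes whose exons partly overlap DEXI on the opposite strand (-1.05 and -1.17), CD74, the invariant chain (-1.03 and -1.02), and HLA-DRB1 (-1.16 and -1.13). In class I, HLA-B (-0.71 and -0.80) and HLA-C (-0.33 and -0.50) fell, while the class I activator NLRC5 (0.39 and 0.29) and the loading factor TAPBP (0.40 and 0.25) rose. The NLRC5 rise in the HDAC3 experiment did not pass without Ctrl replicate 3 (adjusted p = 0.121) or MED23KO replicate 1 (0.0926). HLA genes have near-identical copies, so reads may be split between them. Of 18 interferon response genes tested, 9 rose and 2 fell in both, among them OASL (1.68 and 1.72) and IRF7 (0.73 and 0.74) upward and OAS1 (-0.63 and -0.66) downward.

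Cell cycle genes fell by small amounts. All 22 members were tested, 18 fell in the SOX10 experiment (median -0.22), and 10 fell and 1 rose in the HDAC3 experiment (median -0.05). The 10 that fell in both were MCM2, MCM3, MCM4, MCM5, MCM6, PCNA, RRM2, E2F1, CCNE1 and CCNE2. In the HDAC3 experiment CCNE1 lost the call when any 1 of 5 libraries was left out. CCNE2 lost it when any 1 of 4 was, in either experiment, with adjusted p-values up to 0.182 in the HDAC3 experiment. Its count is also uncertain, as 37.0% of its exonic bases overlap INTS8, a gene of more counts, on the opposite strand. MCM6, part of the replicative helicase, was at 149.5, 148 and 149 CPM in the controls and 111, 110.4 and 107 CPM in the knockouts of the SOX10 experiment, and at 144, 141 and 141 CPM and 112, 108 and 112 CPM in the HDAC3 experiment (-0.45 ± 0.03 and -0.36 ± 0.05). The S phase activator E2F1 (-0.36 and -0.47), the ribonucleotide reductase subunit RRM2 (-0.41 and -0.35) and PCNA (-0.32 and -0.28) fell too.

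The change of 7 of the 22 members differed between the experiments, beside 199 of all 20359 genes tested for a difference (0.977%). The count of 7 was 2 to 5 when 1 library was left out. It was 2 without MED23sg1_EV replicate 3. The kinase AURKB was at 78.9, 78.2 and 80.8 CPM in the controls and 63.5, 62.2 and 61.0 CPM in the knockouts of the SOX10 experiment, with no overlap. The HDAC3 experiment had 65.4, 65.9 and 66.9 CPM and 67.7, 62.6 and 61.7 CPM, and there the groups overlapped. The log2 fold changes were -0.35 ± 0.04 and -0.04 ± 0.05, a difference of -0.33 ± 0.06 (adjusted p = 0.00211). AURKA rose in the HDAC3 experiment (0.18 ± 0.04) and did not pass in the SOX10 experiment (-0.09 ± 0.04, difference adjusted p = 9.8e-04), where it passed without MED23sg1_EV replicate 2 (adjusted p = 0.0423). CDK1 (-0.24 and -0.03), CDC20 (-0.25 and -0.06), BUB1 (-0.14 and 0.05), BUB1B (-0.22 and 0.04) and TOP2A (-0.14 and 0.05) fell in the SOX10 experiment and did not pass in the other. The differences of BUB1 and CDK1 did not pass when any 1 of 12 and any 1 of 11 of the libraries was left out, those of CDC20 and TOP2A when any 1 of 8 and any 1 of 7 was, and that of BUB1B without MED23sg1_EV replicate 3 (adjusted p = 0.0858). AURKB and AURKA passed in every such fit. MKI67, a marker of dividing cells, had -0.12 ± 0.04 and 0.01 ± 0.06. It passed in the SOX10 experiment, but not without GFPsg_EV replicate 2 (adjusted p = 0.097) or MED23sg1_EV replicate 3 (0.0841), and its difference did not pass (adjusted p = 0.175).

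Lipid synthesis genes leaned down by small amounts. Of 20 members 12 fell and 1 rose in the SOX10 experiment (median -0.15), and 7 fell in the HDAC3 experiment (median -0.14), the same 7 in both. They include the fatty acid synthase FASN (-0.50 and -0.60).

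A further set of libraries, with their own controls, allowed the shared genes to be read again. In the Mediator experiment (batch 1) cells with MED23 guide 1 or guide 2 and cells with a GFP guide, 3 libraries each, had received DMSO for 24 h. There 18.4% of 27453 tested genes were higher and 18.5% lower at an adjusted p under 0.05. Of the 351 genes called higher in both experiments, 349 (99.4%) were also higher there, and of the 317 tested of the 318 called lower, 314 (99.1%) were also lower. No gene had the opposite sign at that limit. The exception in sign was ENSG00000282556, with -0.11 ± 0.31 (adjusted p = 0.835) against 1.09 and 1.06, a gene of few counts that overlaps CAVIN3 on the opposite strand and lost its calls in most fits that left out a library. The median size was 1.74, larger than the 1.54 and 1.50 above. Of the 668 genes tested there, 353 lay further from 0 than in either experiment, 154 nearer and 161 between. RXRG (-3.90), EGR1 (-3.67), SPRY4 (-1.80), SOX10 (-1.43) and ERBB3 (-1.69) were among those further from 0, and IL17RD (2.75) and LPAR1 (2.06) among those nearer. FST (-3.34) was nearly the same in all 3.

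The other side of the comparison is what 1 experiment had and the other did not. A total of 311 genes were called in the SOX10 experiment alone and 187 in the HDAC3 experiment alone, over genes tested in both. Of the 311, 288 had the same sign in the HDAC3 experiment and 127 also had an adjusted p under 0.05 there. Their median size was 1.19 in the SOX10 experiment and 0.75 in the other. Of the 187, 175 had the same sign in the SOX10 experiment and 91 an adjusted p under 0.05. Their median size was 1.23 in the HDAC3 experiment and 0.75 in the other. Most of these genes had the same sign in the other experiment.

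A call in 1 experiment alone is no test of a difference, so the difference of the MED23 effects was tested in a fit of the 12 libraries together. Of 20359 genes, 199 differed at an adjusted p under 0.05 (0.977%), and 9 of them at least 2-fold (0.0442%). At an unadjusted p under 0.05, 2492 of these 20359 genes differed. The median size of the 199 differences was 0.33 on the log2 scale, the change was larger in the SOX10 experiment for 138, and 69 had opposite signs. In the Mediator experiment the value was nearer to that of the HDAC3 experiment for 135 of the 199 and nearer to that of the SOX10 experiment for 64.

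The precision of the difference went with the level of the gene. Among the 11349 genes with a mean level of at least 4 CPM in both fits, the median SE of the difference was 0.07, and none differed 2-fold, although 180 differed by less. Of their calls, 79.3% of those of the SOX10 experiment and 88.4% of those of the HDAC3 experiment were called in both. Among the 6605 genes below that level the median SE was 0.35, and the shares were 63.4% and 73.5%. For a gene of the lower class a difference of 2-fold was often not detectable at this depth. The 9 genes below were chosen after their values were seen, and all had a mean level under 4 CPM in the SOX10 fit. ABCG1 was only just under that limit (log2 CPM of 1.94), and above it in the HDAC3 fit (3.12). The SOX10 fit also held groups that are not compared here.

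CXCL14, a chemokine, differed most (ENSG00000145824, chr5:135570679-135579279, minus strand). In the SOX10 experiment it was at 0.112, 0.116 and 0.0734 CPM in the controls, 8 counts in all, and at 1.75, 1.48 and 1.31 CPM in the knockouts, 123 counts. In the HDAC3 experiment it was at 1.84, 2.40 and 2.15 CPM in the controls and 2.51, 2.09 and 2.45 CPM in the knockouts. The knockout libraries of the SOX10 experiment thus came up to just under the level that the controls of the HDAC3 experiment already had. The fitted log2 fold changes were 3.85 ± 0.37 and 0.15 ± 0.15, and the difference was 3.71 ± 0.39 (adjusted p = 1.1e-05). In the Mediator experiment it was 0.21 ± 0.10.

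HAS2, a hyaluronan synthase, and ABCG1, an exporter of cholesterol (ENSG00000160179, chr21:42199689-42297244, plus strand), showed a like arrangement. HAS2 was at 0.410, 0.271 and 0.404 CPM in the controls and 1.87, 1.48 and 1.10 CPM in the knockouts of the SOX10 experiment, and at 1.25, 1.48 and 0.981 CPM and 1.53, 1.40 and 1.63 CPM in the HDAC3 experiment. ABCG1 was at 2.87, 3.26 and 2.50 CPM in the controls and 7.20, 7.31 and 6.82 CPM in the knockouts of the SOX10 experiment, and at 7.69, 8.07 and 8.50 CPM and 9.41, 9.44 and 10.4 CPM in the HDAC3 experiment. For both, the controls of the HDAC3 experiment were above those of the SOX10 experiment, and the 2 knockouts were closer to each other than the 2 controls were. The tables were scaled separately, so this ordering of levels across experiments is a description. HAS2 changed by 2.01 ± 0.27 and 0.30 ± 0.19 (difference adjusted p = 0.0132), and ABCG1 by 1.31 ± 0.11 and 0.27 ± 0.08 (difference adjusted p = 1.3e-04). CXCL14 and HAS2 were the genes called in the SOX10 experiment, not past an adjusted p of 0.05 with the same sign in the other, and differing 2-fold. The HAS2 difference lost its call without GFPsg_EV replicate 2 (1.53, adjusted p = 0.0711), GFPsg_EV replicate 3 (1.78, adjusted p = 0.0505) or MED23sg1_EV replicate 1 (1.53, adjusted p = 0.0569).

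HLA-DOB and CLEC18C met the same rule with the HDAC3 experiment as the one that called them, but both also fell in the Mediator experiment (-1.01, adjusted p = 5.4e-04, and -0.67, adjusted p = 0.00158). HLA-DOB, a modulator of peptide loading on MHC class II (ENSG00000241106, chr6:32812763-32820466, minus strand), was at 0.560, 0.646 and 0.738 CPM in the controls and 0.214, 0.266 and 0.211 CPM in the knockouts of the HDAC3 experiment, with no overlap. In the SOX10 experiment it was at 0.261, 0.155 and 0.257 CPM and 0.457, 0.332 and 0.318 CPM, from 18 and 30 counts. It fell in the HDAC3 experiment (-1.50 ± 0.32) and did not pass in the SOX10 experiment (0.69 ± 0.43, adjusted p = 0.198), with a difference of 2.18 ± 0.50 (adjusted p = 0.0296). The HLA-DOB difference did not pass when any 1 of the 6 libraries of the SOX10 experiment or control replicate 3 of the other was left out, with adjusted p-values up to 0.12. Of the exonic bases of HLA-DOB, 29.7% overlap ENSG00000250264, a gene of few counts, on the same strand, so its count is uncertain. CLEC18C, a lectin-like gene (ENSG00000157335, chr16:70173322-70187361, plus strand), fell in the HDAC3 experiment (-1.57 ± 0.28) and had 0.17 ± 0.26 in the SOX10 experiment. It has near-identical copies, its count is uncertain, and its difference (adjusted p = 0.0312) did not pass with the HDAC3 counts thinned to the depth of the SOX10 experiment (1.63, adjusted p = 0.123), or when any 1 of 6 libraries was left out (adjusted p-values up to 0.135).

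A set of 3 genes moved the same way in both, by amounts that differed 2-fold. COL14A1, a fibril-associated collagen, changed by -1.56 ± 0.21 and -3.08 ± 0.17 (difference adjusted p = 0.0174), and TMEM130 rose by 2.70 ± 0.18 and 1.46 ± 0.23 (difference adjusted p = 0.0141). The noncoding RNA LINC01611 rose by 1.26 ± 0.26 and 3.61 ± 0.38, from 35 and 20 control counts to 86 and 210. Its difference (adjusted p = 0.00571) did not pass with the HDAC3 counts thinned (-1.70, adjusted p = 0.218). That of COL14A1 did not pass without MED23sg1_EV replicate 1 (1.42, adjusted p = 0.0799), and that of TMEM130 not without GFPsg_EV replicate 3 (1.06, adjusted p = 0.0982). The last of the 9, the lincRNA ENSG00000260597, changed by 0.90 ± 0.19 and -0.13 ± 0.18 (difference adjusted p = 0.0457), and its difference did not pass under 11 of the alternatives. In the Mediator experiment HAS2 had 0.60 ± 0.26, ABCG1 0.27 ± 0.06 and COL14A1 -2.78 ± 0.14. TMEM130 had 2.22 ± 0.15 there, LINC01611 1.36 ± 0.22 and ENSG00000260597 0.71 ± 0.15.

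**Figure D5:**
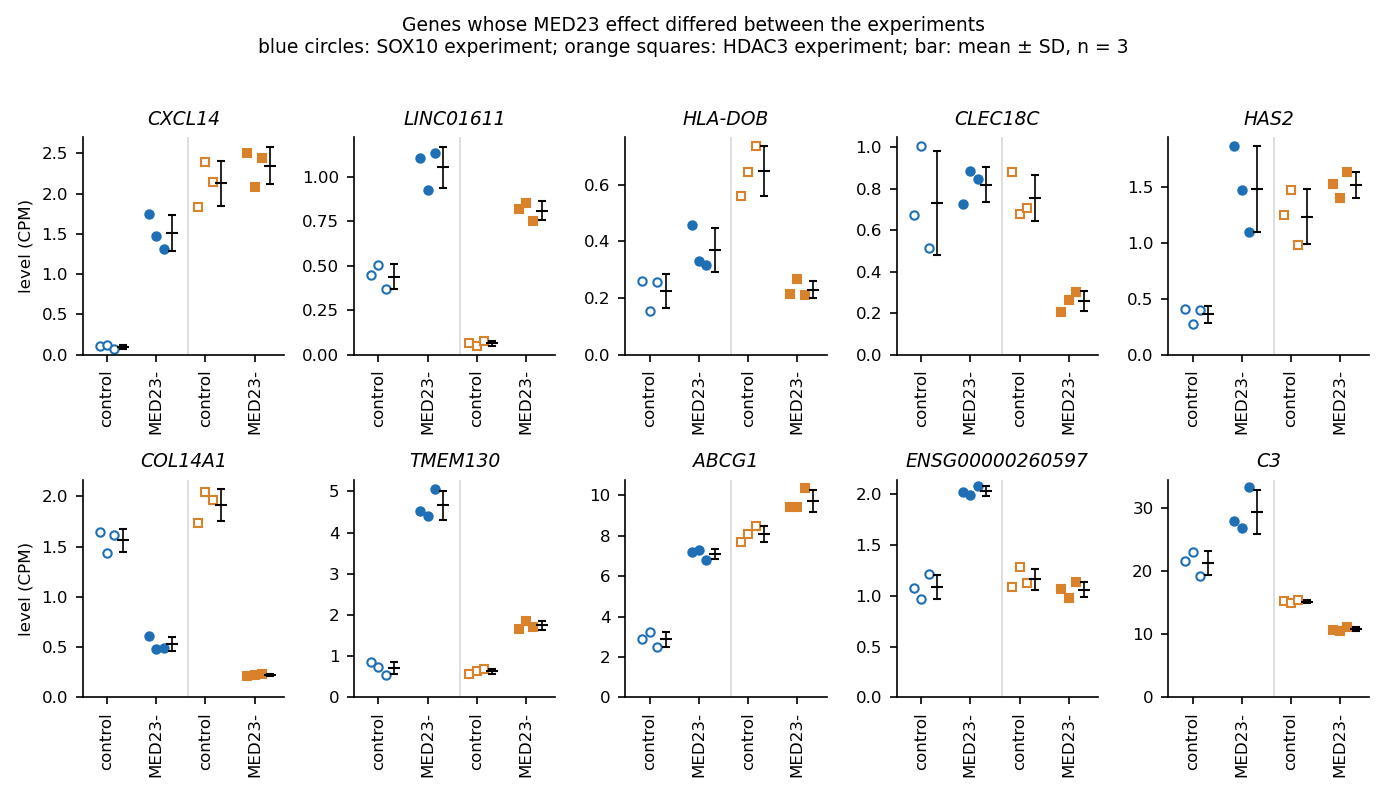
Level in CPM (linear axis from 0, mean ± SD beside the points, n = 3) of the 9 genes whose change differed 2-fold, and of C3, in each of the 12 libraries. CXCL14, HAS2 and ABCG1 have lower controls in the SOX10 than in the HDAC3 experiment, and C3 rises in one experiment and falls in the other.

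Opposite signs with an adjusted p under 0.05 in both were found for 13 genes, each by less than 2-fold in at least 1 experiment. For 11 of the 13, all but C3 and ADAM19, a call in at least 1 experiment was lost when a single library was left out. CDCA2 lost its call in the HDAC3 experiment without any 1 of the 6 libraries (adjusted p-values up to 0.176), FTH1P2 without any 1 of 5 (up to 0.145) and CD96 without any 1 of 4 (up to 0.17). C3, the central complement component (ENSG00000125730, chr19:6677704-6730562, minus strand), was at 21.7, 23.1 and 19.3 CPM in the controls and 28.0, 26.9 and 33.4 CPM in the knockouts of the SOX10 experiment. The HDAC3 experiment had 15.3, 14.9 and 15.4 CPM and 10.7, 10.5 and 11.2 CPM. Neither pair of groups overlapped, and the knockouts were higher in the first and lower in the second. The log2 fold changes were 0.47 ± 0.07 (adjusted p = 1.9e-06) and -0.49 ± 0.06 (adjusted p = 1.7e-06), the difference was 0.94 ± 0.10 (adjusted p = 1.1e-05), and the Mediator experiment gave -0.28 ± 0.07. ADAM19, a membrane protease, went the same way in the SOX10 and HDAC3 experiments at a higher level (0.33 ± 0.04 and -0.23 ± 0.06, difference adjusted p = 3.2e-05). For ADAM19 the Mediator experiment gave 0.12 ± 0.03 (adjusted p = 0.00189), the sign of the SOX10 experiment. Of the other 11, the difference passed for TMEM158, S100A3, ZDHHC2, FTH1P2, ARHGAP31, CD96, CDCA2 and DUSP6, and did not pass for USP3-AS1, MAP7 and GALNT5. Leaving out 1 library ended the call of the difference in at least 1 fit for TMEM158, S100A3, ZDHHC2 (adjusted p up to 0.101), ARHGAP31 (0.0706), CDCA2 (up to 0.104) and DUSP6. It gave one in 2 fits each for MAP7 (0.0193 without MED23KO replicate 1 and 0.0487 without GFPsg_EV replicate 2) and GALNT5 (0.039 and 0.0441 without MED23KO replicates 1 and 3), and for USP3-AS1 without MED23KO replicate 1 (0.0484). USP3-AS1 overlaps other genes on the opposite strand and FTH1P2 is a ferritin pseudogene, so both counts are uncertain.

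For the HDAC3 experiment, the names of the control columns refer to GFP whereas the sample titles say Ctrl. They were matched by elimination, and every value of that experiment rests on this match. The difference between experiments rests on 3 libraries per group. The call count of 9 varied from 4 to 19 when a library was left out: it was 4 without GFPsg_EV replicate 3, 5 without MED23sg1_EV replicate 1, 17 without Ctrl replicate 1 and 19 without MED23KO replicate 1.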

How the data were processed

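The submitters deposited read counts per gene, 1 table per experiment, as whole numbers for 58721 Ensembl gene IDs. Per the submitters' processing notes, bcl2fastq, HISAT2 and HTSeq were used with hg38. The sources used here do not give versions, annotation, strand setting or the handling of reads with several matches. Per the labels, libraries were made from poly(A) RNA with the KAPA Stranded mRNA-Seq kit. All 66 columns were mapped to samples, 15 under names that differ from the title. Of the IDs, 58676 matched GENCODE 29, which gave coordinates, and 58207 a current symbol.

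Each experiment was fitted with edgeR 4.0.16 in R 4.3.3 on all its libraries with 1 mean per group, after filterByExpr (minimum count 10, minimum total 15) and TMM scaling, with quasi-likelihood F tests and Benjamini-Hochberg adjustment over all genes tested. The difference between experiments came from a joint fit of the 12 libraries. The SE was taken as the size of the log2 fold change over the root of F, and CPM is a library's count per M counts of its total after TMM scaling. The procedure was tested on simulated data.

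The members and the 26 gene lists (426 entries) were chosen with earlier results of these data known. Named genes were 17 genes set by name, the 8 highest and 8 lowest genes called in both that have a symbol, no overlap between groups and a mean level of log2 CPM 2 or more, genes specific to 1 experiment, genes with opposite signs, and up to 4 members of each list with members that moved against it. No gene specific to 1 experiment met the level limit; those named were chosen after their values were seen. Alternatives were no fold minimum, no low-count filter, DESeq2 1.42.0 size factors and Wald test, a replicate block, only the groups compared, thinning of the HDAC3 counts to 27.71 M, the z of separate fits, each guide alone, and leaving out each library. The other groups of the series were not analysed here.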

Additional observations from a re-analysis of the deposited data

Results flagged for a closer look

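For 38 named genes the test of the difference between the experiments passed at an adjusted p under 0.05. Differences are given as the log2 fold change in the SOX10 experiment minus that in the HDAC3 experiment, and 199 genes of the whole table passed the same test. Some of the named genes had a mean level under 4 CPM in the SOX10 fit, ABCG1 only just. Their differences were 3.71 for CXCL14, -2.36 for LINC01611, 2.18 for HLA-DOB, 1.72 for CLEC18C, 1.69 for HAS2, 1.50 for COL14A1, 1.22 for TMEM130, 1.02 for ABCG1 and 1.01 for ENSG00000260597.

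Genes that were higher in the SOX10 experiment and lower in the HDAC3 experiment were C3 (0.94), TMEM158 (0.62), ADAM19 (0.54), S100A3 (0.51), ZDHHC2 (0.39), ARHGAP31 (0.34) and DUSP6 (0.25). FTH1P2 (-0.35), CD96 (-0.34) and CDCA2 (-0.31) had the reverse order. Those of S100A3 and TMEM158 each lost the call under 7 alternatives and that of DUSP6 under 6.

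Other positive differences were those of STRA6 (0.73), a retinol transporter, NPTX2 (0.63), TGFBI (0.51), IL17RD (0.48), COL5A1 (0.43), EGFR (0.34), TNC (0.28), SPARC (0.26), LOXL2 (0.23), MAP1A (0.36) and DLC1 (0.35). That of LOXL2 lost the call in 4 of the fits without 1 library and that of MAP1A in 3. ERBB3 had -0.23, which lost the call under 12 alternatives. Members of the cell cycle list were AURKB (-0.33), AURKA (-0.29), BUB1B (-0.28), CDK1 (-0.23), CDC20 (-0.21), BUB1 (-0.21) and TOP2A (-0.20).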

How the results depend on the processing

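Without the fold minimum, 7822 genes passed in the SOX10 experiment, 5131 in the HDAC3 experiment, 4292 in both with the same sign and 199 in the test of the difference. The other alternatives gave 925 to 1244 called genes in the SOX10 experiment (992 as reported), 808 to 1120 in the HDAC3 experiment (1007) and 609 to 724 in both (669), with 808 and 609 under thinning of the HDAC3 counts. Leaving out 1 library gave 1030 to 1054, 928 to 951 and 638 to 681. Genes called with opposite signs numbered 0 under all of these but 1, without GFPsg_EV replicate 1 (1 gene). The count of genes that differ 2-fold was the least stable: 9 as reported, 5 with the DESeq2 Wald test, 14 with the HDAC3 counts thinned, 20 with no low-count filter, 29 by the z of separate fits, and 4 to 19 without 1 library. The cause was not tested. The differences of CXCL14, ABCG1 and C3 kept an adjusted p under 0.05 in every refit of the joint test, but that of ABCG1 was under 2-fold without GFPsg_EV replicate 3 (0.93). With no low-count filter the differences of MAP7 (adjusted p = 0.0188) and GALNT5 (0.0437) passed. List members that moved the same way in both numbered 192, and 170 to 200 under the alternatives. With guide 1 or guide 2 alone, 654 and 660 of the genes called in both passed in the Mediator experiment (663 with both). Of 2071 recomputed values of genes named by rule, 1869 kept their side of the threshold, 186 lost a call and 16 gained one. None changed sign where the value passed before or after. Sign changes of values that passed in neither fit were not counted.

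Deviations of same-numbered libraries from their group means correlated at -0.02 to 0.07 over the tested genes. These values cannot exclude a pairing by number, because the deviations also hold counting noise. The main fits used no pairing. A replicate block gave 998 called genes in the SOX10 experiment, 1023 in the HDAC3 experiment, 677 in both, 14 that differ 2-fold and 200 list members. With the block the differences of MKI67 (-0.146, adjusted p = 0.0257) and MAP7 (-0.939, adjusted p = 0.0194) passed, and 11 cell cycle genes differed (7 as reported).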

Other observations

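Microtubule-associated and neuronal genes, which are not described above, held some large rises. Of 13 tested, 5 rose and 1 fell in both experiments. MAP2, a dendritic microtubule-associated protein, was at 0.299, 0.736 and 0.441 CPM in the controls and 8.42, 8.71 and 7.95 CPM in the knockouts of the SOX10 experiment, and at 0.165, 0.103 and 0.107 CPM and 4.78, 4.37 and 4.18 CPM in the HDAC3 experiment. It rose from 39 counts in each set of controls (4.08 ± 0.18 and 5.13 ± 0.26). SNAP25, a vesicle fusion protein (1.70 and 1.36), and NAV3 (1.44 and 1.49) also rose, and the neurofilament NEFL fell (-0.72 and -0.70). Of 14 retinoid genes tested, GPRC5C, a receptor that retinoic acid induces, rose most (3.84 ± 0.16 and 3.63 ± 0.27), while RXRG fell and RARB did not pass (0.02 and -0.12).

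Among p53 targets, 6 of 16 rose and 2 fell in both, with TP53INP1 (0.78 and 0.72) and ZMAT3 (0.33 and 0.19) upward and GDF15 (-0.57 and -0.41) downward, which in the HDAC3 experiment did not pass when any 1 of 4 libraries was left out (all but Ctrl replicate 1 and MED23KO replicate 2, adjusted p up to 0.265). Of 16 unfolded protein and ATF4 genes, 6 fell in both, among them the cystine transporter SLC7A11 (-0.62 and -0.55). Histone mRNAs that lack a poly(A) tail rose in both for 5 of 12 tested genes, from a summed level of 20.4 to 25.3 CPM in the controls to 33.9 to 44.1 CPM in the knockouts, and their part in the other results was not tested.

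Markers of other cell types were low or changed one by one. The 12 blood cell markers summed to 14.7 to 19.9 CPM in the controls and 7.58 to 10.3 CPM in the knockouts, with 3 tested and 2 at 0. Of the 8 endothelial markers 7 were tested, with sums of 10.5 to 15.1 CPM and 8.30 to 11.7 CPM. CDH5 rose (3.77 and 4.05, from 14 and 32 counts) and KDR fell (-1.65 and -1.19). The 12 epithelial markers summed to 197 to 226 CPM and 250.1 to 304 CPM, mostly KRT18 (0.56 and 0.49), which overlaps KRT8 in part on the opposite strand. The part of these markers in the other results was not tested.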
